A study of Mus with 6 samples.

Results

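The early growth response genes Egr1, Egr2 and Egr3, the orphan nuclear receptor genes Nr4a1, Nr4a2 and Nr4a3, the EGR corepressor genes Nab1 and Nab2 and the serum response factor gene Srf were examined in activated CD4+ T cells cultured with or without neutralization of VEGF-B. These 9 genes of the 10995 listed were chosen by symbol, and they were selected on values of the same comparison, since Egr1 had been seen among the largest differences. Their levels and differences between treatments are therefore given as a description, without a test. All 9 had a mean of at least 1 FPKM (fragments scaled for transcript length and for the mapped reads of the library) and so were among the 8816 genes carried into the fit.

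EGR proteins are zinc finger transcription factors whose genes are switched on soon after a T cell receptor is engaged, by ERK signaling acting on ternary complex factors and SRF at their promoters. NR4A proteins are nuclear receptors without a known physiological ligand, induced by the same receptor through calcium, MEF2 and CREB factors, and Nr4a1, which encodes Nur77, is widely used as a reporter of T cell receptor signaling. NAB1 and NAB2 bind EGR proteins and repress their targets, and Nab2 is itself an EGR target. In T cells, EGR2, EGR3 and the NR4A receptors are known for restraining effector responses as well as for accompanying activation.

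Naive CD4+ T cells from the spleens of WT mice were stimulated for 3 days with antibodies to CD3 at 5 μg/mL and to CD28 at 2 μg/mL in the presence of 100 U/mL IL-2. Either anti–VEGF-B antibody, which neutralizes this growth factor, or normal IgG was added at 1 μg/mL, with 3 libraries per treatment. The age of the mice is not given in the sources used here, and nothing in the labels says whether the 3 libraries of a treatment came from separate animals or cultures. The p-values below thus measure the spread between these libraries only, which may be technical. The number of reads per library is unknown, so that this spread is the only error given. Means are given ± SD over 3 libraries, and log2 fold changes (anti–VEGF-B over IgG, on the log2(FPKM + 1) scale, which understates the change of low genes) ± SE.

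The first principal component held 65.1% of the variance and separated the treatments, with IgG replicate 2 (score 27.2, against 8.76 and 11.8 in the other IgG libraries) and anti–VEGF-B replicate 3 (-21.0, against -13.1 and -13.5) farthest out. The median log2 fold change of all tested genes was -0.15, and 71.2% of them were below 0. All 10 T cell markers were detected, at summed levels of 646 to 674 FPKM with anti–VEGF-B and 636 to 704 FPKM with IgG, and 2 of them fell, Cd3e (log2 fold change -0.51, adjusted p = 0.0197 in limma) and Cd5 (-0.38, adjusted p = 0.0343). Summed markers of activated T cells were 527 to 583 FPKM with anti–VEGF-B and 647 to 783 FPKM with IgG, and 5 of 9 fell by the criterion used throughout, an adjusted p under 0.05 in limma with Benjamini-Hochberg adjustment over all tested genes, which 23.8% of all tested genes met in this direction. Those of resting T cells were 208 to 256 FPKM and 315 to 396 FPKM, and 5 of 8 fell. The pair of CD8 markers summed to 3.32 to 4.69 FPKM and 2.29 to 4.21 FPKM. Of the markers of other cells, 1 of 7 for B cells was analysed here (Cd79b, at most 1.34 FPKM), 1 of 5 for NK cells (Eomes, at most 0.203 FPKM), 1 of 4 for endothelium (Pecam1, 5.87 to 7.37 FPKM) and 0 of 6 for erythroid cells. Of 8 macrophage markers 4 were analysed here and summed to 11.4 to 12.9 FPKM with anti–VEGF-B and 12.8 to 28.8 FPKM with IgG, the highest sum being that of IgG replicate 3, where Lyz2 was at 16.4 FPKM. Of 7 dendritic cell markers 3 were analysed here. They summed, mostly from H2-Ab1, to 191 to 201 FPKM with anti–VEGF-B and 163 to 184 FPKM with IgG. H2-Ab1, an MHC class II chain, was higher with anti–VEGF-B (log2 fold change 0.26, adjusted p = 0.0209 in limma). Cd74 did not pass the test (-0.03, adjusted p = 0.906). Zbtb46, too low to be tested, was at means of 0.245 FPKM with anti–VEGF-B and 0.337 FPKM with IgG. The part of these marker differences in the levels below was not tested. In bulk libraries such as these, fewer cells of a type and less RNA per cell cannot be told apart.

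Vegfb RNA, whose protein the antibody binds, was at 6.48, 5.92 and 6.21 FPKM with anti–VEGF-B and at 7.44, 7.81 and 6.55 FPKM with IgG (log2 fold change -0.20, adjusted p = 0.147 in limma). The antibody acts on protein, so this value is no check of the treatment.

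All 9 genes had a lower mean with anti–VEGF-B, and each log2 fold change was below the median of all genes, as it was under each of 4 other scalings when set against the median under that scaling. The size ranged widely, from a mean 3.87 times higher with IgG for Egr1 to 1.14 times higher for Nr4a3. By the criterion above, 6 of 9 were called lower (Egr1, Egr2, Egr3, Nr4a1, Nab2 and Srf), beside 23.8% of all tested genes. Of these calls only those of Egr1 and Nab2 were lost under a single alternative, no moderation of the variance. The call of Egr2 was lost also without anti–VEGF-B replicate 3, that of Egr3 under 3 and that of Nr4a1 under 2 of the 4 other scalings between libraries, and that of Srf under all 4. Leaving out any of 4 single libraries ended the calls of Egr3 and Nr4a1, and any of 5 that of Srf. None was called higher in limma, whether at an adjusted or an unadjusted p under 0.05, beside 4.87% of all genes at the adjusted p. For 7 of the 9 genes every anti–VEGF-B library lay under every IgG library, as was the case for 38.5% of tested genes, and the reverse order, seen for 10.5% of tested genes, was found for 0 of the 9. Since the genes were selected on this comparison, nothing is read from these counts.

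**Figure D1:**
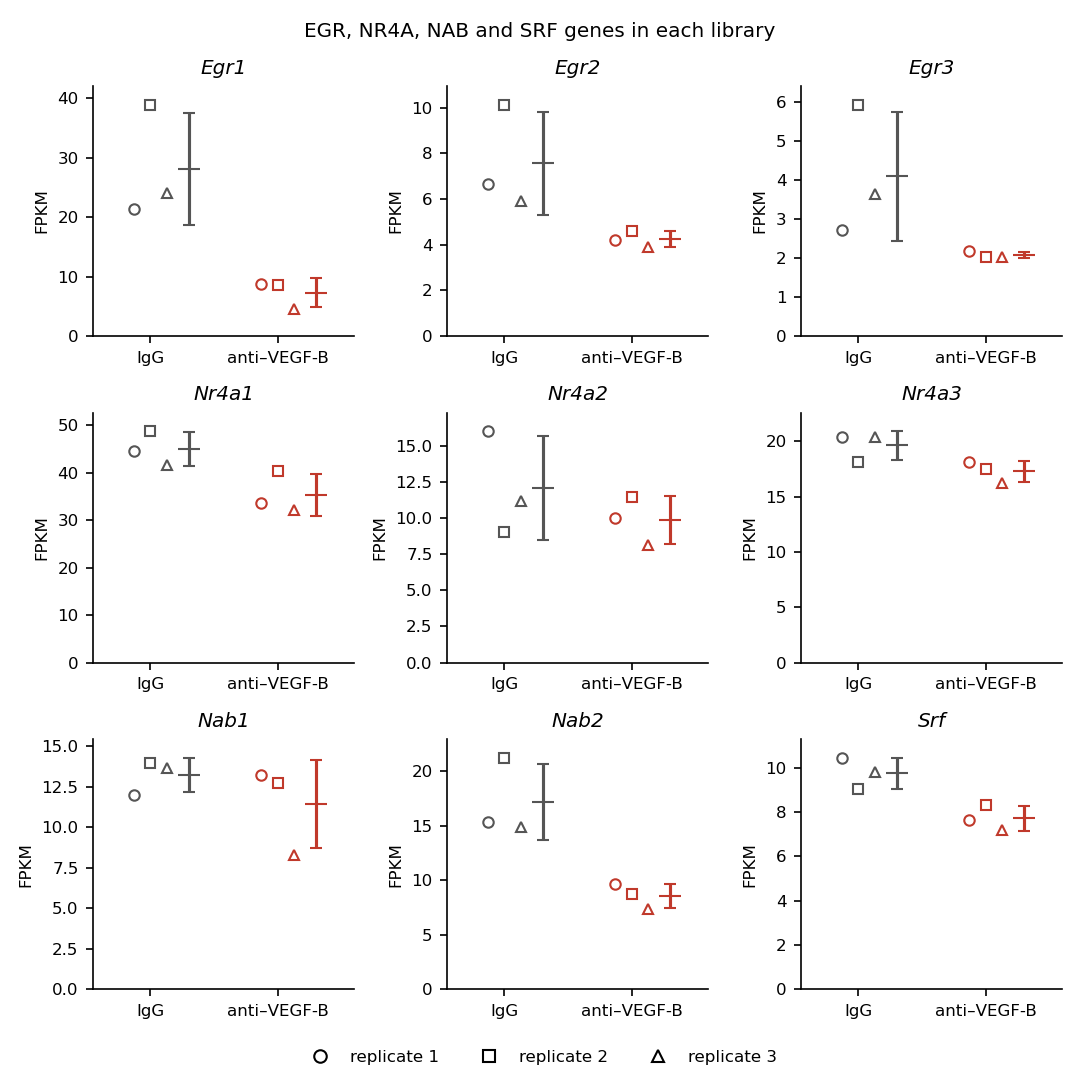
FPKM of each of the 9 genes in the 6 libraries (y axes from 0, a separate scale for each gene), by treatment and replicate number, with the mean ± SD of 3 libraries beside the points. The treatments are widest apart for Egr1 and Nab2, and they overlap for Nr4a2 and Nab1.

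Egr1 was the member that differed most. It was at 8.72, 8.62 and 4.49 FPKM in anti–VEGF-B replicates 1, 2 and 3 and at 21.3, 39.0 and 24.1 FPKM in IgG replicates 1, 2 and 3. The treatments did not overlap, the highest anti–VEGF-B library lying 12.6 FPKM under the lowest IgG library, and the most extreme values came from the same libraries that stood apart in the principal components. The mean was 7.28 ± 2.42 FPKM with anti–VEGF-B and 28.1 ± 9.50 FPKM with IgG, or 74.1% lower, and the log2 fold change of -1.82 ± 0.26 was the 3rd lowest among all tested genes. Without both anti–VEGF-B replicate 3 and IgG replicate 2 it was -1.29, and without IgG replicate 3, the library with high Lyz2, it was -1.90.

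Egr2, whose product restrains T cells and guides NKT cell development, was at 4.23, 4.61 and 3.89 FPKM with anti–VEGF-B and at 6.65, 10.1 and 5.90 FPKM with IgG. Again the treatments did not overlap, by a margin of 1.29 FPKM, and IgG replicate 2 was far above the other IgG libraries. The means were 4.24 ± 0.360 and 7.56 ± 2.26 FPKM, with a log2 fold change of -0.68 ± 0.17. By the deposited table (GRCm38), from which all positions are taken, the gene lies at chr10:67535475-67542188 on the plus strand, and its start overlaps Gm32255, a long noncoding RNA gene in RefSeq (GRCm38.p6).

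Egr3, which acts partly in place of Egr2 in T cells, was the lowest of the 9 genes. Its values were 2.16, 2.02 and 2.02 FPKM with anti–VEGF-B and 2.71, 5.92 and 3.62 FPKM with IgG. The anti–VEGF-B libraries were close to each other while the IgG libraries spread over a 2.19-fold range, and the margin between the treatments was 0.545 FPKM. The means were 2.07 ± 0.0830 and 4.08 ± 1.66 FPKM, and the log2 fold change was -0.68 ± 0.20. Without IgG replicate 2 it was -0.43, and for Egr2 it was -0.47. Egr3 lies at chr14:70077203-70082614 on the plus strand.

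The 3 EGR genes also differed among the IgG libraries themselves. IgG replicate 2 held 1.72 times the mean of the other 2 IgG libraries for Egr1, 1.62 times for Egr2 and 1.87 times for Egr3, where the median over all tested genes was 1.1 times. These ratios stood at the 98.5th, 97.4th and 99.2nd percentile of all tested genes. The coefficients of variation within IgG, 33.8%, 29.9% and 40.6%, likewise stood at the 96.6th, 94.6th and 98.2nd percentile, against a median of 10.6%. With anti–VEGF-B the coefficient of variation was 33.2% for Egr1 but 8.49% for Egr2 and 4.02% for Egr3, against a median of 9.12%. Among the 9 genes these were the highest coefficients within IgG, followed by 29.7% for Nr4a2.

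Within the EGR family the composition differed between the treatments. Since Egr1 had been seen among the largest differences of this comparison, its lower share largely restates the selection. The same holds for the ratios with Egr1 given below. Egr1 made up 69.5%, 70.8% and 71.6% of the summed EGR FPKM in the IgG libraries but 57.7%, 56.5% and 43.1% in the anti–VEGF-B libraries. The share varied little among the IgG libraries (70.7% ± 1.07) although their summed EGR level ranged from 30.7 to 55.0 FPKM, and all 3 anti–VEGF-B libraries were lower (52.5% ± 8.10). The ratio of Egr2 to Egr3 overlapped between the treatments, at 2.06 ± 0.200 with anti–VEGF-B and 1.93 ± 0.456 with IgG. In the anti–VEGF-B libraries the EGR genes summed to 15.1, 15.2 and 10.4 FPKM.

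Nr4a1 was the highest of the 9 genes, at the 90.6th percentile of tested genes by its IgG mean. It was at 33.6, 40.3 and 32.1 FPKM with anti–VEGF-B and at 44.5, 48.8 and 41.7 FPKM with IgG. All anti–VEGF-B libraries were lower, but anti–VEGF-B replicate 2 came within 1.31 FPKM of the lowest IgG library. The means were 35.3 ± 4.40 and 45.0 ± 3.58 FPKM, or 21.4% lower, and the log2 fold change was -0.34 ± 0.10. Set against the all-gene median it was -0.19. The gene lies at chr15:101266846-101274792 on the plus strand.

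Nr4a2, which encodes Nurr1, was at 9.97, 11.5 and 8.16 FPKM with anti–VEGF-B and at 16.0, 8.999 and 11.2 FPKM with IgG. The treatments overlapped, with IgG replicate 2 under 2 of the anti–VEGF-B libraries and IgG replicate 1 above all others. The means were 9.87 ± 1.66 and 12.1 ± 3.58 FPKM, with a log2 fold change of -0.24 ± 0.19, which without IgG replicate 1 was -0.04. Nr4a2 was low in IgG replicate 2, the library in which the EGR genes were highest. Its ratio to the other IgG libraries, 0.662, stood at percentile 1.3 of all tested genes. The gene, at chr2:57106830-57124003 on the minus strand, overlaps LOC105244150, a coding gene in RefSeq.

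Nr4a3, which encodes NOR1, was at 18.1, 17.5 and 16.3 FPKM with anti–VEGF-B and at 20.4, 18.1 and 20.4 FPKM with IgG. The treatments were separated by 0.0399 FPKM, less than the spread within either. The means were 17.3 ± 0.932 and 19.6 ± 1.29 FPKM. Its log2 fold change of -0.17 ± 0.08 lay close to the median of all genes, and it was above that median on leaving out any of 3 single libraries. Nr4a3 lies at chr4:48045153-48086447 on the plus strand.

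Summed over the family, NR4A transcripts were at 61.7, 69.3 and 56.5 FPKM with anti–VEGF-B and at 80.9, 75.9 and 73.2 FPKM with IgG. The NR4A sum was 4.08, 4.54 and 5.43 times the EGR sum in each anti–VEGF-B library in turn. It was 2.64, 1.38 and 2.18 times in the IgG libraries, and the ranges did not overlap. Egr1, whose difference was known when the genes were selected, made up most of the EGR sum in the IgG libraries. This ratio thus largely restates the selection, and nothing is read from it. The share of Nr4a1 in the NR4A sum, in contrast to the share of Egr1 in the EGR sum, overlapped between the treatments, at 56.5% ± 1.88 and 58.7% ± 4.88. For the pair of genes highest in each family, the ratio of Nr4a1 to Egr1 was 3.85, 4.68 and 7.15 with anti–VEGF-B and 2.09, 1.25 and 1.73 with IgG. Such ratios within a library do not depend on a scaling factor between libraries, but show unequal change only and not which gene changed.

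**Figure D2:**
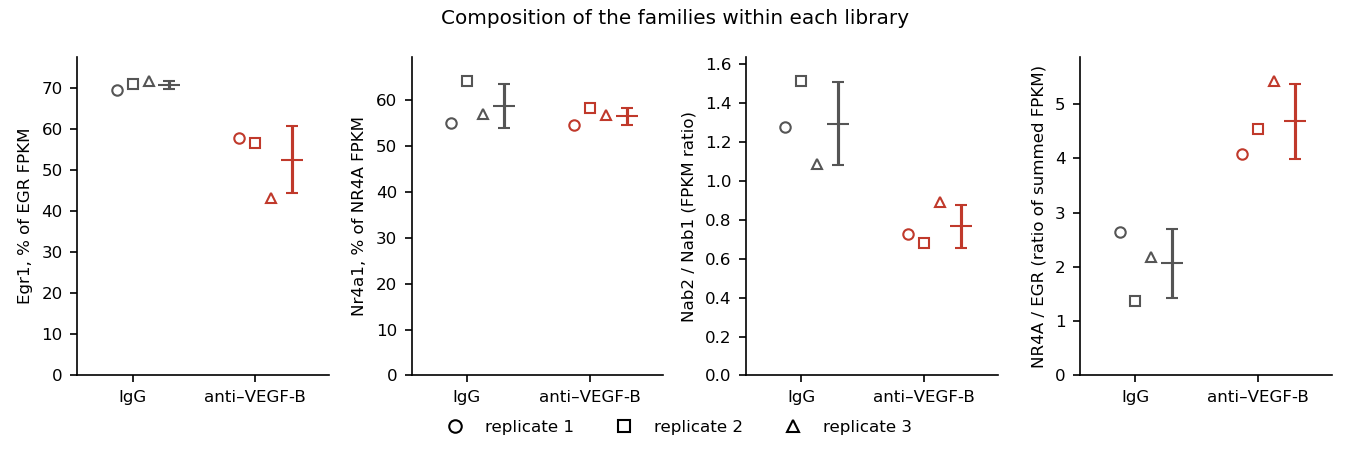
Composition of the gene families in each library, as the percentage of summed EGR FPKM from Egr1, the percentage of summed NR4A FPKM from Nr4a1, the Nab2 to Nab1 ratio and the NR4A to EGR ratio, with the mean ± SD of 3 libraries per treatment. The share of Egr1 is 69.5% to 71.6% with IgG and 43.1% to 57.7% with anti–VEGF-B, while the share of Nr4a1 overlaps. The share of Egr1 and the NR4A to EGR ratio largely restate the selection of Egr1 on this comparison.

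The corepressor genes differed from each other. Nab2 was at 9.61, 8.70 and 7.40 FPKM with anti–VEGF-B and at 15.4, 21.2 and 14.9 FPKM with IgG. The treatments lay 5.29 FPKM apart, and the highest and lowest values again came from IgG replicate 2 and anti–VEGF-B replicate 3. The means were 8.57 ± 1.11 and 17.2 ± 3.53 FPKM, or 50.1% lower, and the log2 fold change of -0.91 ± 0.14 was the 104th lowest among tested genes. Nab2 lies at chr10:127660918-127668568 on the minus strand, and by the deposited positions overlaps genes of the opposite strand, Stat6 by 40 bases and Nemp1 by 1668 bases. With the neighbors placed by RefSeq, the same span overlaps Stat6 and the long noncoding RNA gene 1700012D01Rik but not Nemp1. The libraries were stranded, but whether reads were assigned by strand is not given in the sources used here, so reads in these overlaps are uncertain. Stat6 was at means of 44.1 FPKM with anti–VEGF-B and 47.6 FPKM with IgG, and Nemp1 at 3.30 and 4.34 FPKM.

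Nab1 was at 13.2, 12.7 and 8.30 FPKM with anti–VEGF-B and at 12.02, 14.0 and 13.7 FPKM with IgG. Only anti–VEGF-B replicate 3 lay under all IgG libraries. The means were 11.4 ± 2.72 and 13.2 ± 1.07 FPKM, and the log2 fold change of -0.22 ± 0.16 became -0.02 without anti–VEGF-B replicate 3, and 0.02 without both that library and IgG replicate 2. The ratio of Nab2 to Nab1 was 0.725, 0.683 and 0.891 with anti–VEGF-B and 1.28, 1.52 and 1.09 with IgG, so that Nab2 exceeded Nab1 in each IgG library and was under it in each anti–VEGF-B library. Nab1 lies at chr1:52457294-52500679 on the minus strand. Egr1 and Nab2 did not keep a constant ratio, which was 0.908, 0.990 and 0.606 with anti–VEGF-B and 1.39, 1.84 and 1.61 with IgG.

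Srf, the factor through which serum and receptor signals reach the EGR promoters and many actin genes, was at 7.67, 8.31 and 7.21 FPKM with anti–VEGF-B and at 10.4, 9.05 and 9.80 FPKM with IgG. Every anti–VEGF-B library was lower, by at least 0.736 FPKM. The means were 7.73 ± 0.556 and 9.76 ± 0.699 FPKM, with a log2 fold change of -0.30 ± 0.09, or -0.15 after subtracting the all-gene median. In IgG replicate 2, where Egr1 was highest, Srf was the lowest of the IgG values. The ratio of Egr1 to Srf was accordingly 4.31 in that library, against 2.04 and 2.45 in the other IgG libraries and 1.14, 1.04 and 0.623 with anti–VEGF-B. Srf lies at chr17:46546839-46556162 on the minus strand, and its span holds the miRNA gene Mir6976 in RefSeq.

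**Figure D3:**
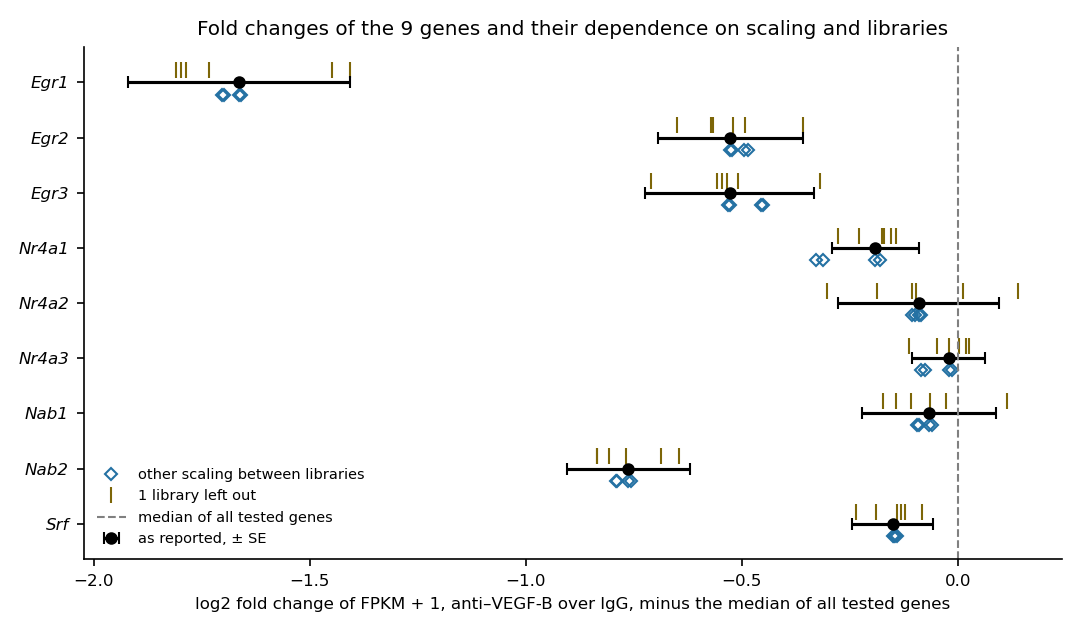
Log2 fold change of FPKM + 1, anti–VEGF-B over IgG, minus the median of all tested genes (dashed line at 0), for the 9 genes as reported (black, ± SE), under 4 other scalings between libraries (diamonds) and with 1 library left out (ticks), each less the median of its own fit. Egr1 and Nab2 lie farthest under the median, and only Nr4a2, Nr4a3 and Nab1 have ticks on either side of it.

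The deposited values were taken to be FPKM, which are scaled by transcript length and so allow levels to be ordered between genes. In the IgG libraries the order of mean FPKM was Nr4a1, Egr1, Nr4a3, Nab2, Nab1, Nr4a2, Srf, Egr2 and Egr3. Of neighbors in this order, Nr4a1 and Egr1, Egr1 and Nr4a3, and Nab2 and Nab1 did not overlap in the IgG libraries. The other neighboring pairs overlapped, although Egr2 was above Egr3 in 3 of 3 IgG libraries. With anti–VEGF-B, Egr1 stood in place 7 of 9 by its mean, but it overlapped with Srf and was above it in 2 of 3 libraries, and Nab2 stood under Nab1 and Nr4a2.

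The likeness of profiles was measured as the mean absolute difference over the 6 libraries of log2(FPKM + 1), each gene centred on its own mean. The difference between treatments enters this measure, so genes of like fold change lie close. These distances thus largely restate the comparison on which the 9 genes were selected. Among the 9 genes the closest pairs were Nr4a3 and Srf (0.07), Nr4a1 and Srf (0.10), Egr2 and Nab2 (0.13) and Egr2 and Egr3 (0.13). Egr1, whose log2 fold change was the lowest of the 9 genes, was distant from all, its nearest member being Nab2 at 0.45. Over all tested genes the profiles nearest to Egr1 were those of Irf4 (0.10), Tmem127 (0.16) and Tgtp1 (0.19), and the same 3 genes were nearest after quantile normalization. Their log2 fold changes were -1.67, -1.50 and -1.60, against -1.82 for Egr1. Irf4, a transcription factor induced by T cell receptor signaling in proportion to its strength, was at 32.0, 31.5 and 22.6 FPKM with anti–VEGF-B and at 67.5, 133.8 and 86.6 FPKM with IgG, and thus was also highest in IgG replicate 2 and lowest in anti–VEGF-B replicate 3. Tgtp1 belongs to a family with near-identical copies, so its value is uncertain.

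For Egr2 the nearest were Slc35c1 (0.04), Faf2 (0.04) and Tyk2 (0.05), and those nearest to Egr3 included Aacs and Arrdc2 (each 0.06). Nab2 was closest to Mgat2 (0.02), Ccr7 (0.03), a chemokine receptor of naive T cells, and Nfkbie (0.05). The nearest to Nr4a1 were Vav2 (0.02), Gpkow (0.03) and Capn15 (0.03), to Nr4a2 Baiap2 (0.07), Ifng (0.07) and Fhl2 (0.09), and to Nr4a3 Tsc22d3, Parp8 and 3110001I22Rik. The genes closest to Srf were Ino80c, Txnrd1 and Slc25a33, and those closest to Nab1 were Zfp426, Rac1 and Maz. For Nr4a1, Nab1 and Nab2, 0 of these 3 genes remained nearest after quantile normalization, so that their rankings rested on the scaling between libraries.

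Genes around these factors were followed in 7 lists written from general knowledge, but with earlier results of these data known. Each list is described by its counts and its median log2 fold change, beside the 23.8% lower, 4.87% higher and median of -0.15 of all tested genes. Of the genes picked from the lists by rule, 37 in all, each kept its direction under every alternative tried. That says little, since these genes were picked for passing the test in the same libraries. However, 17 lost their call without anti–VEGF-B replicate 3 and 10 without IgG replicate 2, and all 37 did so when the variance was not moderated.

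**Figure D4:**
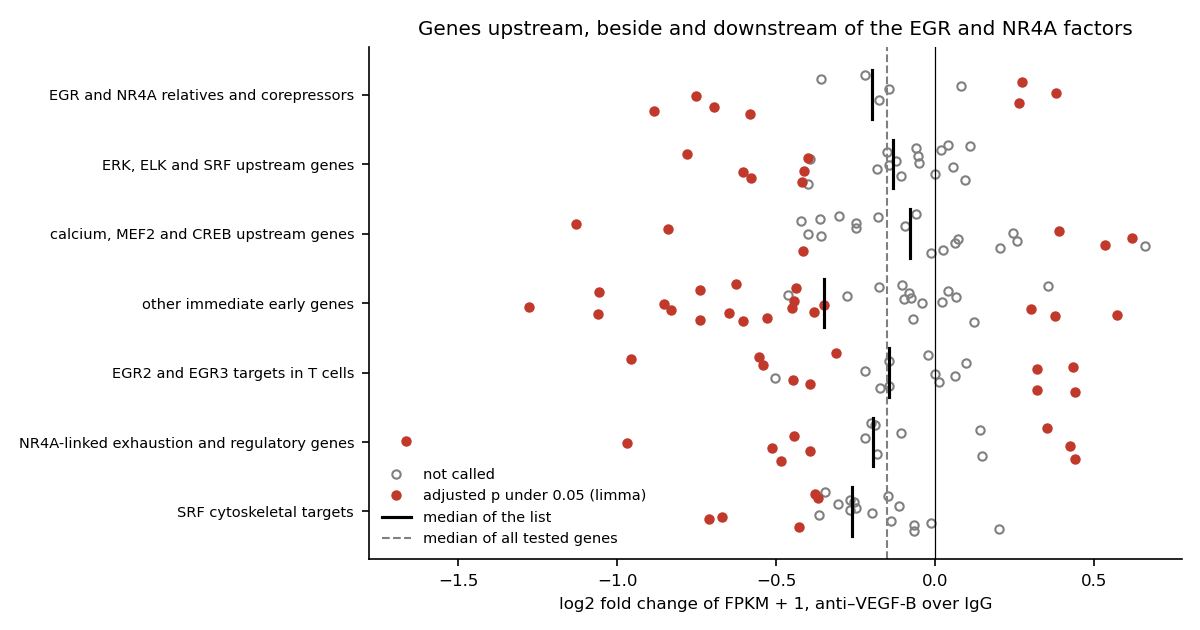
Log2 fold changes of FPKM + 1, anti–VEGF-B over IgG, of the tested genes of 7 lists (1 point per gene, filled where the adjusted p in limma was under 0.05), with the median of each list (bar) and of all tested genes (dashed, -0.15). The immediate early genes hold the most filled points on the lower side, 16 of 33, and the calcium list has as many on the higher as on the lower side.

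Of 22 genes leading from the T cell receptor through RAS and ERK to the ELK and SRF factors, 6 fell and none rose. At an unadjusted p under 0.05 none rose either, both in limma. The median was -0.13, and the share that fell, 27.3%, was near the 23.8% of all tested genes. Rasgrp1, the RAS activator of T cells, fell from 30.9 ± 5.22 FPKM with IgG to 17.5 ± 2.45 FPKM with anti–VEGF-B (log2 fold change -0.78 ± 0.13, adjusted p = 0.00738). Elk3, a ternary complex factor, fell from 3.82 ± 0.409 to 2.23 ± 0.460 FPKM (-0.58 ± 0.13, adjusted p = 0.0138), and the scaffold gene Ksr1 fell by 0.41 on the log2 scale (adjusted p = 0.0237), although the Ksr1 call was lost under 4 other scalings. Mapk3, an ERK kinase gene that falls outside the naming rule and was picked after its values were seen, differed by -0.05 on the log2 scale (adjusted p = 0.742). This is a transcript level and says nothing of ERK phosphorylation.

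Of 24 tested genes of the calcium, MEF2 and CREB route to the NR4A promoters, 3 fell and 3 rose, with a median of -0.08. The calcium channel gene Orai1 fell from 8.52 ± 1.28 to 3.35 ± 0.617 FPKM (-1.13 ± 0.14, adjusted p = 0.00469) and Nfatc1, a calcineurin-dependent factor, fell from 17.4 ± 2.78 to 9.23 ± 1.19 FPKM (-0.84 ± 0.13, adjusted p = 0.00527). The third that fell was Cabin1, a repressor of calcineurin and MEF2 (-0.42 ± 0.11, adjusted p = 0.0245), named outside the rule. Hdac5, a repressor of MEF2, rose from 14.5 ± 1.20 to 22.8 ± 1.38 FPKM (0.62 ± 0.09, adjusted p = 0.00491). Crem, which encodes CREB-related activators and repressors, rose from 34.7 ± 4.49 to 50.7 ± 7.09 FPKM (0.53 ± 0.12, adjusted p = 0.0162), and Mef2d rose by 0.39 ± 0.13 (adjusted p = 0.0463). The calls of Crem and Mef2d were lost without anti–VEGF-B replicate 3, among other settings. Of 16 alternatives at the same adjusted p threshold, Crem was called in 12 and Mef2d in 6.

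Of 33 other immediate early and early response genes, which like the EGR genes are switched on soon after stimulation, 16 fell and 3 rose, with a median of -0.35. Without both libraries that stood apart 6 fell and 1 rose, beside 277 lower and 76 higher among all 8816 tested genes in that fit. Dusp6, an ERK phosphatase, fell from 7.59 ± 1.43 to 3.09 ± 0.0892 FPKM (-1.06 ± 0.12, adjusted p = 0.00469). Cd69, an early activation receptor, fell from 11.3 ± 0.651 to 6.35 ± 0.198 FPKM (-0.74 ± 0.09), and the kinase gene Plk2 fell from 31.2 ± 3.08 to 18.2 ± 0.953 FPKM (-0.74 ± 0.09), with the same adjusted p. In the other direction Dusp5, another ERK phosphatase, rose from 71.9 ± 0.357 to 107 ± 6.28 FPKM (0.57 ± 0.07, adjusted p = 0.00469). Fosl2 (0.30 ± 0.07, adjusted p = 0.0191) and Dusp4 (0.37 ± 0.10, adjusted p = 0.0222) rose as well. The calls of Fosl2 and Dusp4 were each lost without anti–VEGF-B replicate 2, anti–VEGF-B replicate 3 or IgG replicate 2. The other FOS and JUN genes of the list were picked after their values were seen. Fosl1 (-0.83, adjusted p = 0.0129), Fos (-0.65, adjusted p = 0.0230), Jund (-0.44, adjusted p = 0.0234) and Fosb (-0.38, adjusted p = 0.0270) fell, whereas Jun (-0.04, adjusted p = 0.742) and Junb (0.02, adjusted p = 0.865) did not pass the test. Fosl1 was at means of 0.873 FPKM with anti–VEGF-B and 2.39 FPKM with IgG, and Fosb at 0.790 and 1.34 FPKM. Both passed the filter of 1 FPKM only through their IgG level. Nothing is read from their falls, which are among the 16 counted.

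Among 12 tested relatives and corepressors of the EGR and NR4A factors, 4 fell and 3 rose, with a median of -0.20. The chromatin remodeler genes Chd4 and Chd3 and the deacetylase gene Hdac1, whose products act in the NuRD complex, fell. Chd4 fell from 57.0 ± 8.65 to 30.5 ± 5.77 FPKM (-0.88 ± 0.14, adjusted p = 0.00657), Chd3 from 13.1 ± 1.98 to 8.40 ± 1.33 FPKM (-0.58 ± 0.13, adjusted p = 0.0145) and Hdac1 from 39.7 ± 4.65 to 24.0 ± 1.35 FPKM (-0.70 ± 0.09, adjusted p = 0.00491). Hdac2, the paralog of Hdac1 and also a NuRD component, rose from 21.4 ± 0.481 to 25.9 ± 1.72 FPKM (0.26 ± 0.08, adjusted p = 0.0356), and the corepressor gene Rcor1 rose by 0.27 ± 0.08 (adjusted p = 0.0332). The KLF pair of zinc finger repressors went apart, Klf10 falling from 11.5 ± 1.54 to 6.40 ± 0.673 FPKM (-0.75 ± 0.12, adjusted p = 0.00574) and Klf11 rising by 0.38 ± 0.11 (adjusted p = 0.0366). The 3 genes that rose lost their calls on leaving out any of 4 libraries or more, and Egr4, Wt1 and Rxrg were not analysed here.

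Of 20 tested genes known as EGR2 and EGR3 targets in T cells, 6 fell and 4 rose, with a median of -0.15. The cytokine signaling inhibitor gene Socs1 fell from 28.8 ± 6.46 to 14.2 ± 2.39 FPKM (-0.96 ± 0.16, adjusted p = 0.00714) and Nrn1, which encodes neuritin, fell from 63.5 ± 8.25 to 43.3 ± 5.12 FPKM (-0.54 ± 0.12, adjusted p = 0.0127). Those that rose included Nfil3, a leucine zipper factor, from 403 ± 30.1 to 543 ± 6.82 FPKM (0.43 ± 0.08, adjusted p = 0.00845). Ndrg1 rose from 279 ± 9.85 to 348 ± 5.07 FPKM (0.32 ± 0.07, adjusted p = 0.0125). The ubiquitin ligase gene Cblb rose by 0.32 ± 0.08 (adjusted p = 0.0215) and Bcl2l11, which encodes the proapoptotic protein BIM, by 0.44 ± 0.10 (adjusted p = 0.0166). All of these but Socs1 lost their calls without both libraries that stood apart. Outside the naming rule and picked after their values were seen, Dgkz fell (-0.45, adjusted p = 0.0145). Rnf128 (0.10, adjusted p = 0.525), Dgka (0.01, adjusted p = 0.933) and Itch (-0.002, adjusted p = 0.992) did not pass the test.

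Of 16 tested genes linked to NR4A factors in exhausted or regulatory T cells, 6 fell and 3 rose, with a median of -0.20. Irf4 fell from 96.0 ± 34.2 to 28.7 ± 5.25 FPKM (-1.67 ± 0.22, adjusted p = 0.00488) and Il2ra, the high-affinity IL-2 receptor chain, from 117 ± 28.9 to 58.3 ± 7.01 FPKM (-0.97 ± 0.16, adjusted p = 0.00665). Of the 5 tested inhibitory receptor genes of this list (Havcr2, Ctla4, Pdcd1, Lag3 and Tigit), 3 fell and 1 rose. Havcr2 fell from 1.48 ± 0.0836 to 0.746 ± 0.234 FPKM (-0.51 ± 0.12, adjusted p = 0.0158) while Tigit rose from 32.4 ± 0.546 to 41.7 ± 2.13 FPKM (0.35 ± 0.07, adjusted p = 0.0111). Outside the naming rule, Ctla4 (-0.40, adjusted p = 0.0179) and Pdcd1 (-0.44, adjusted p = 0.0460) fell and Lag3 (-0.22, adjusted p = 0.154) did not pass the test. Pdcd1 was at means of 0.947 FPKM with anti–VEGF-B and 1.65 FPKM with IgG. Havcr2 and Pdcd1 thus passed the filter of 1 FPKM only through their IgG level, and nothing is read from their falls. Ikzf2, which encodes Helios, rose by 0.42 ± 0.11 (adjusted p = 0.0231), and the remaining gene that rose was Bcl2l11. The calls of Havcr2 and Ikzf2 were lost without anti–VEGF-B replicate 3, among other settings. That of Havcr2 was lost also under quantile normalization, median centring and cyclic loess. Tox, Tox2, Foxp3 and Entpd1 were under 1 FPKM and were not tested.

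Of 20 cytoskeletal targets of SRF, 5 fell and none rose by the adjusted p in limma (1 rose at an unadjusted p under 0.05). The share that fell, 25%, was near the 23.8% of all tested genes, and the median was -0.26. Those that fell included Filip1l (4.27 ± 0.461 to 2.22 ± 0.278 FPKM, -0.71 ± 0.11, adjusted p = 0.00634). The actin crosslinker genes Flna (12.0 ± 2.47 to 7.10 ± 0.898 FPKM, -0.67 ± 0.14, adjusted p = 0.0128) and Actn1 (-0.43 ± 0.10, adjusted p = 0.0183) fell too. The others were the tropomyosin gene Tpm4 (-0.37 ± 0.09, adjusted p = 0.0172) and, outside the naming rule, Wdr1 (-0.38 ± 0.11, adjusted p = 0.0373). The call of Actn1 was lost under all 4 other scalings, and that of Tpm4 under median centring and scaling to Actb. Actb, the actin gene used for 1 of the scalings, differed by -0.07 on the log2 scale (adjusted p = 0.557). Without both libraries that stood apart, 1 of the 20 genes was called lower, beside 277 of all 8816 tested genes in that fit.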

How the data were processed

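RNA-Seq of total RNA in 6 libraries of activated CD4+ T cells was used. The authors aligned stranded reads to GRCm38 (mm10) with hisat2 and used StringTie and Ballgown for expression. The deposited table lists 10995 protein-coding genes and names no unit. Its title speaks of raw data, but the deposited values are not whole numbers and were taken to be FPKM, an assumption from these tools, so no count model was run. No normalization between libraries is stated, and 0 other columns of values per sample were present.

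Genes whose mean reached 1 FPKM (8816) entered the fit of log2(FPKM + 1) over all 6 libraries, with no covariate, in R 4.3.3 with limma 3.58.1 (empirical Bayes with trend), and genes were called at a Benjamini-Hochberg adjusted p under 0.05. The procedure was run on simulated data in which each gene was drawn independently. Shifts of whole libraries were not simulated, so this run says nothing of how the calls depend on them. Positions are those of the deposited table, and overlapping genes were also looked up in RefSeq (GRCm38.p6). Promoter and protein sequences were not used here.

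Named were the 9 genes, Vegfb, Actb, of each list the 4 called genes with the lowest p and those called against the list's main direction, and the 3 genes nearest to each of the 9. Some genes this rule picks are not reported here. The members and lists were chosen with earlier results of these data known. The 16 alternatives changed the scaling, filter, pseudocount, moderation, threshold, replicate block or libraries. Leaving out 2 libraries together was added after seeing the data.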

Additional observations from a re-analysis of the deposited data

How the results depend on the processing

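The directions of the 9 genes held under all alternatives with 2 exceptions, Nr4a3 under median centring (0.027, where the median of all genes was 0.049) and Nab1 without both anti–VEGF-B replicate 3 and IgG replicate 2 (0.017, with -0.33 as the lowest value on leaving out libraries). Over all genes 2099 were called lower and 429 higher. These counts were 917 and 869 under quantile normalization, 807 and 1365 under median centring and 938 and 852 under cyclic loess, 1309 were lower with scaling to Actb and 989 with at least 5 FPKM, and at an unadjusted threshold (p under 0.05, log2 fold change beyond 0.5 either way) they were 998 and 123. With no moderation 6 were lower and 6 higher (2512 and 696 at an unadjusted p), and 0 of the 9 genes and 0 of every list passed (5 of the 9 genes at an unadjusted p). Leaving out libraries gave 277 to 2071 lower and 76 to 396 higher genes, with the fewest when both libraries named above were left out. Under median centring 3 of the 9 genes were called, and 2 to 5 on leaving out libraries. Of the 9, 2 were called without anti–VEGF-B replicate 3, 3 without anti–VEGF-B replicate 1, and Egr1 and Nab2 alone without both libraries.

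Of the ERK list 3 genes were lower under quantile normalization, median centring, cyclic loess, at least 5 FPKM and the unadjusted threshold, and 1 was higher under quantile normalization and cyclic loess. Of the calcium list 7 were higher under quantile normalization, median centring and cyclic loess. Of the NR4A-linked list 3 were lower under quantile normalization, cyclic loess, at least 5 FPKM and the unadjusted threshold, and 2 lower and 5 higher under median centring. Median centring also gave 8 immediate early genes and 3 EGR targets lower, and 2 SRF targets lower and 1 higher. Scaling to Actb gave 1 relative higher and 2 SRF targets lower. The unadjusted threshold gave 3 EGR targets and 2 SRF targets lower, 1 immediate early gene higher and 0 higher among relatives, EGR targets and NR4A-linked genes. On leaving out libraries the calls lower ranged from 3 to 4 for relatives, 1 to 8 for the ERK list, 2 to 6 for the calcium list, 6 to 16 for immediate early genes, 2 to 6 for EGR targets, 2 to 5 for NR4A-linked genes and 1 to 7 for SRF targets. The calls higher ranged from 0 to 2 for relatives, 1 to 3 for the calcium list, 1 to 4 for immediate early genes, 0 to 4 for EGR targets and 0 to 3 for NR4A-linked genes. The cause of these differences was not tested.

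Deviations of same-numbered libraries from their group means correlated at -0.03, 0.11 and 0.09 across genes, so the numbers were not taken to pair the libraries, and not every library correlated best with its own number. With the replicate number as a block, 2109 genes were lower and 469 higher, 5 of the 9 genes were called, Srf being the call lost, and 5 genes of the calcium list and 9 SRF targets were lower and 1 SRF target higher.

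With no counts, the precision from sequencing depth is unknown, most of all for Egr3 and other genes of a few FPKM.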
